A study of Mus musculus with 6 samples.

Results

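The 10 genes described here are *Id1*, *Id2*, *Id3*, *Id4*, *Smad6*, *Smad7*, *Bambi*, *Nog*, *Grem1* and *Chrd*, a set of genes that respond to bone morphogenetic proteins (BMPs) or hold their signal back. They were taken by gene symbol from the 23284 genes listed for each of 6 samples, and all 10 were found. The samples were OBs, the cells that make bone matrix, sorted by their cyan fluorescent protein (ECFP) from BMP-2-induced ectopic bone of male *Col2.3*-ECFP mice 12 to 16 weeks old. In these animals the *Col2.3* promoter switches on ECFP in OBs. Each collagen sponge carried 2.5 μg of BMP-2, which all 6 samples therefore share, and cells were collected on day 10 (n = 3) or day 14 (n = 3) after implantation, with no sample free of BMP-2 among them. Minced bone was treated with 0.25% trypsin for 15 min and 0.2% collagenase II for 40 min, with 1 round of collagenase for the day 10 bone and 2 rounds for the day 14 bone. An effect of the longer digestion and one of the day cannot be told apart. Blood cells carrying CD45 and dead cells were gated out. Titles name all 3 later samples day 14, as is done here, whereas the free-text descriptions place replicates 2 and 3 on days 15 and 16. The labels call the replicates biological. How many animals were pooled in each is not given in the sources used here.

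BMPs bind pairs of receptor kinases at the cell surface, which phosphorylate Smad1, Smad5 and Smad9, and these join Smad4 and enter the nucleus to switch on target genes. The Id genes are the classical early targets. Their proteins lack a DNA-binding region and tie up other helix-loop-helix factors, which they keep from binding DNA. Smad6 and Smad7 are inhibitory Smads made in response to the signal, and *Bambi* is a receptor-like protein without a kinase domain that acts as a decoy. Noggin (*Nog*), gremlin 1 (*Grem1*) and chordin (*Chrd*) are secreted and bind BMPs before they reach a receptor. In bone, BMP signalling is known for turning mesenchymal cells into OBs, and its antagonists for limiting how far this goes.

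Smad complexes reach such genes through short DNA motifs, so the stretches before the transcription start of some of these genes are shown first. RefSeq promoter entries (GRCm38.p6, 250 bases before to 50 after the start) were used for 6 of the 10 genes. These were *Id2*, *Id3*, *Id4*, *Smad6*, *Grem1* and *Chrd*. No entry was used for *Id1*, *Smad7*, *Bambi* or *Nog*, so the motif counts among the members do not cover those genes. The 4 sequences below run 5′ to 3′ along the gene and cover the 250 bases before the RefSeq start and the first 10 transcribed bases. Gene positions given further below come from another annotation, GENCODE vM21. Its spans of *Id2* and *Id3* begin further upstream, so the printed stretches of these genes lie inside them. They were chosen to show *Id3* and *Smad6*, which share the same order of levels over the 6 samples, and *Id2* and *Grem1*, which hold a GC-rich motif. Capitals mark GGCGCC, a GC-rich site of the kind bound by Smad1 and Smad5, and in *Smad6* the palindrome GTCTAGAC.
*Id2* (chr12:25096083-25096342, minus strand): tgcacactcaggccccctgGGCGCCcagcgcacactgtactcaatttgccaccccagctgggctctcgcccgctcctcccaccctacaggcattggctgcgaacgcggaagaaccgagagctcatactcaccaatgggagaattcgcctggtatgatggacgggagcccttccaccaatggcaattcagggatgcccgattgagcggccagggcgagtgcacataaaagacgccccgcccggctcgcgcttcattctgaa
*Id3* (chr4:136143572-136143831, plus strand): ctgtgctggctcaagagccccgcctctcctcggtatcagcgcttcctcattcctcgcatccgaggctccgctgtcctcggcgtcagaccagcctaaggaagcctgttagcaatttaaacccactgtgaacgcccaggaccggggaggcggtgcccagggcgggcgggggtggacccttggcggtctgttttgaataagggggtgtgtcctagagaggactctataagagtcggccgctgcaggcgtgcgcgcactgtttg
*Smad6* (chr9:64022050-64022309, minus strand): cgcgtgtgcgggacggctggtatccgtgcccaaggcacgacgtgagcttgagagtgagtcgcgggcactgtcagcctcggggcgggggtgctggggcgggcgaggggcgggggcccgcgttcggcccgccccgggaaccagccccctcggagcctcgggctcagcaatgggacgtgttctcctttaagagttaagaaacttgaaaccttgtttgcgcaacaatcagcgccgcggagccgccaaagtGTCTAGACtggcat
*Grem1* (chr2:113758639-113758898, minus strand): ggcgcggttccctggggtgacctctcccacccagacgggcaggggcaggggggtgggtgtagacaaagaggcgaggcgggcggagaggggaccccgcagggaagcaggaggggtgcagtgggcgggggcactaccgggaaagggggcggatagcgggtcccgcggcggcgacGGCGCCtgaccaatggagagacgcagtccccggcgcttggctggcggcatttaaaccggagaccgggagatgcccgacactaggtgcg

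Motifs were searched on both strands of the full 300-base windows, with positions counted from the first transcribed base as 0. GGCGCC was found in 4 of the 6 promoters, at −231 to −226 in *Id2*, −148 to −143 in *Id4*, −203 to −198 in *Chrd* and −78 to −73 in *Grem1*. Of all 32851 promoters of the same length in the table, 11.9% held it. The 6 windows had a GC content of 60.0% to 78.3%, above the median of 52.7% over all promoters. The shorter site GTCT was in 5 of the 6 promoters, all but *Id4*, and in 88.0% of all promoters. In *Smad6* it formed GTCTAGAC, which is GTCT read from both strands, at −4 to 3 across the start itself. This longer motif was added to the search after the sequence was seen, and 0.213% of all promoters held it. The E-box CANNTG was in *Id2*, *Smad6* and *Chrd*, and in 72.3% of all promoters. A match is a run of letters in this window and not a measured binding site.

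Expression is given as FPKM, the reads of a gene scaled to its length and to the mapped reads of the sample. Library depth was estimated from the steps between low FPKM values, at 4558000 to 7790000 mapped reads per sample, where 3 reads on 1000 bases come to 0.385 to 0.658 FPKM, a floor that covers counting error only. All 8 OB markers were above 0 in every sample, led by *Col1a1* at 14151 to 34157 FPKM and *Col1a2* at 10581 to 21942 FPKM. They were lower in mean on day 14 in 8 of 8, where 10441 of the 19526 genes tested had a log2 fold change below 0. Of the 8, 1 (*Sp7*) was separated downwards between the days, as were 6.67% of all genes tested. The sum of the 8 markers was 43155 to 84889 FPKM on day 10 and 28562 to 63298 FPKM on day 14. The lowest single values were those of *Sp7*, at 4.09 FPKM, and *Runx2*, at 7.00 FPKM, both in day 14 replicate 3. Replicate 2 of day 14 stood apart from its group. It had the fewest genes above 0 FPKM, 16646, beside 19698 and 17630 in day 14 replicates 1 and 3 and 18739 to 19208 on day 10. Its mean log2(FPKM + 0.1) over 12 chondrocyte markers was 5.41, above the 5.0, 4.56 and 4.22 of the day 10 samples, whereas the other day 14 samples were at 2.15 and 1.57. *Comp*, a cartilage matrix gene, was at 1383 FPKM in it and *Col2a1*, the main cartilage collagen gene, at 688 FPKM, while *Matn1* was listed at 0 in the other day 14 samples and in day 10 replicate 3. Its mean over 8 OB markers was 10.5, beside 10.8, 11.0 and 9.86 on day 10 and 9.28 and 8.48 in replicates 1 and 3 of day 14. Each comparison below is therefore given with this sample and, where it matters, without it.

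Levels of the 10 genes ranged from 0 FPKM in *Nog* to 852 FPKM in *Id3*. Ordered by mean FPKM, which is scaled to gene length, the day 10 samples ran *Id3*, *Id2*, *Bambi*, *Id1*, *Id4*, *Smad6*, *Smad7*, *Chrd*, *Grem1*, *Nog*. The samples of *Bambi* and *Id1* overlapped, as did those of *Id4* and *Smad6*, of *Smad6* and *Smad7* and of *Chrd* and *Grem1*, while the other steps in the order were free of overlap. On day 14 *Id3* and *Id2* were again highest and *Nog* lowest, with no overlap, but from *Id1* down to *Chrd* each gene overlapped the next. Among all listed genes ordered by their day 10 mean, *Id3* ranked 55, *Id2* 642, *Bambi* 1263 and *Id1* 1338. By the day 14 mean the same genes ranked 82, 523, 3712 and 2460.

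**Figure D1:**
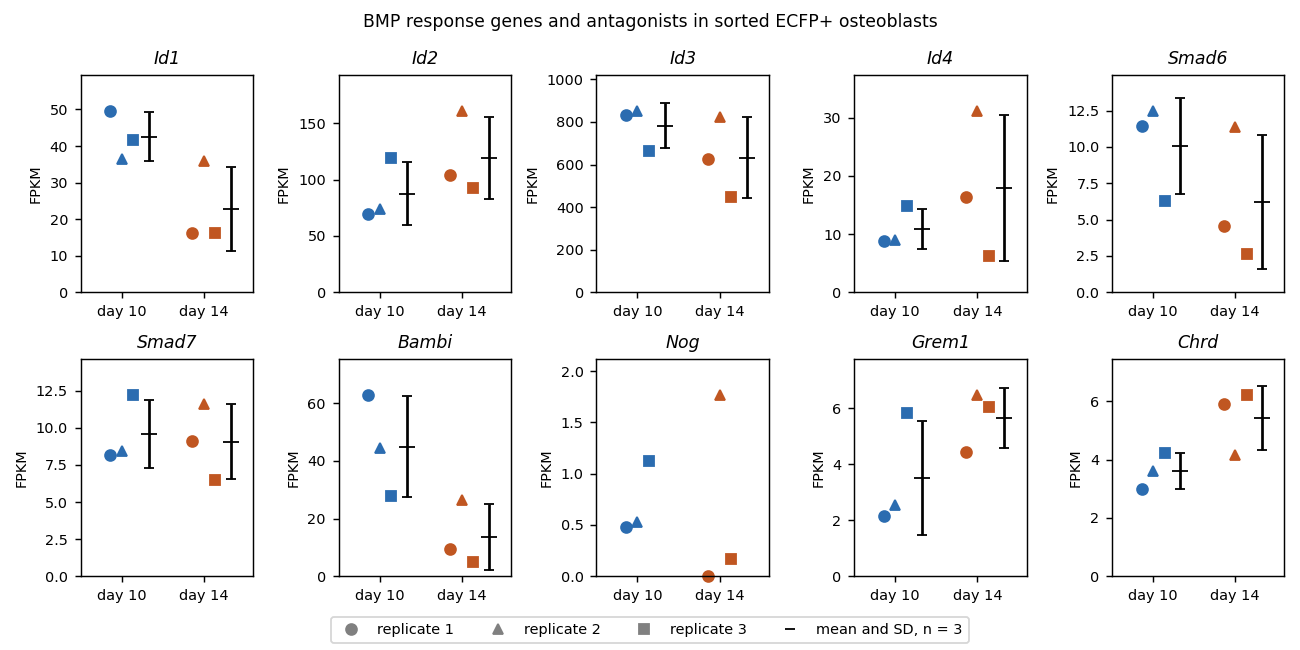
FPKM of each gene in the 3 day 10 samples (blue) and the 3 day 14 samples (orange), 1 panel per gene with its own axis from 0. The marker shape gives the replicate number and the black bar the mean with its SD, except for Nog, which has no bar. Every day 14 point lies below every day 10 point in Id1 and Bambi, while the triangle of day 14 replicate 2 is the highest of its day in 9 of the 10 panels.

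Between the days, no gene of the set passed an adjusted p of 0.05 with all 6 samples (0 of 10 in limma), where 0.0154% of the 19526 genes tested did. At limma's unadjusted p under 0.05, *Id1* and *Bambi* were lower on day 14 (2 of 10, background 4.4%) and 0 of 10 were higher (background 5.6%). The samples of the days did not overlap in the same 2 genes, both lower on day 14 (background 6.67%), and in 0 of 10 in the other direction (background 7.59%). The median log2 fold change was −0.22 over the 10 genes and −0.04 over all genes tested, with a fitted value for *Nog*, which is near its detection limit, among the 10. For the other 8 genes the two-sided exact permutation test gave p from 0.2 to 0.9. In whole sorted populations like these, fewer cells of a kind and less RNA per cell cannot be told apart. Without day 14 replicate 2, *Id1* and *Bambi* passed an adjusted p of 0.05 in limma (2 of 10), where 0.386% of the 19674 genes then tested did. That sample was singled out from these same data and was the day 14 sample nearest to day 10 in both genes. Leaving it out therefore widens their difference, and leaving out any other sample gave 0 of 10. At an unadjusted p under 0.05, 4 of 10 were then lower (*Id1*, *Smad6*, *Bambi* and *Nog*, background 5.99%) and 1 of 10 higher (*Chrd*, background 7.01%). The days were separate downwards in 5 of 10 (the same 4 genes and *Id3*, background 13.2%) and upwards in 1 of 10 (*Chrd*, background 15.3%).

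*Id1*, which sits on chromosome 2 from 152736251 to 152737410 on the plus strand (mm10), was at 49.6, 36.4 and 41.6 FPKM on day 10. On day 14 it was at 16.2, 35.9 and 16.1 FPKM. Replicates 1 and 3 of day 14 were far below every day 10 sample, and replicate 2 just below the lowest of them. The mean was 42.6 ± 6.65 FPKM on day 10 and 22.7 ± 11.4 FPKM on day 14 (SD, n = 3), which gave a log2 fold change of −1.0 (95% interval −1.70 to −0.29, adjusted p = 0.360 from limma). A two-sided exact permutation test gave p = 0.1, below which no comparison of 3 with 3 samples can go. Without day 14 replicate 2 the log2 fold change was −1.38 (adjusted p = 0.0340 from limma). Its unadjusted limma p was under 0.05 in 13 of 14 other settings of processing or samples.

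*Id2*, on chromosome 12 from 25093799 to 25097140 on the minus strand, had the opposite sign of difference. It was at 69.2, 73.6 and 119.6 FPKM in the day 10 samples and at 104.6, 161.2 and 92.5 FPKM in those of day 14. Day 10 replicate 3 lay among the day 14 samples, so the days overlapped. The log2 fold change of 0.45 (95% interval −0.17 to 1.08, adjusted p = 0.640 from limma) leaves a difference of either sign within its interval.

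*Id3*, on chromosome 4 from 136143497 to 136145755 on the plus strand, was the most abundant of the set throughout. Its day 10 samples were at 834, 852 and 663 FPKM and its day 14 samples at 624, 825 and 446 FPKM. The day 14 samples overlapped day 10 only through replicate 2. Means of 783 ± 104 and 632 ± 189 FPKM (SD, n = 3) gave a log2 fold change of −0.35 (95% interval −0.96 to 0.27, adjusted p = 0.744 from limma). Without day 14 replicate 2 it was −0.56 (adjusted p = 0.412 from limma) and the days no longer overlapped.

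*Id4*, on chromosome 13 from 48261228 to 48266026 on the plus strand, was at 8.85, 9.01 and 14.8 FPKM on day 10. The day 14 samples, at 16.4, 31.2 and 6.23 FPKM, held both its highest and its lowest value. Its log2 fold change of 0.48 (95% interval −0.70 to 1.65, adjusted p = 0.829 from limma) turned to −0.06 without day 14 replicate 2. A stretch of 110 bases of *Id4* is identical to the long non-coding gene *Gm49291*, so reads there could be assigned to either.

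Summed over the 4 Id genes, the level was 961, 971 and 839 FPKM on day 10 and 762, 1053 and 561 FPKM on day 14, with overlap. *Id3* made up 78.3% to 87.7% of that sum in every sample. *Id1* took 3.75% to 5.16% on day 10 and 2.12% to 3.41% on day 14, and these shares did not overlap. Within each sample, *Id2* was 1.39, 2.02 and 2.87 times *Id1* on day 10 and 6.47, 4.48 and 5.75 times *Id1* on day 14. The mean ratio was 2.10 ± 0.743 and 5.57 ± 1.00 (SD, n = 3). This ratio was formed after the values of both genes were seen and has no test. Unlike the level of *Id1*, the ratio in day 14 replicate 2 lay nearer to its own day than to day 10, and as a ratio within a sample it does not depend on the scaling between samples.

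**Figure D2:**
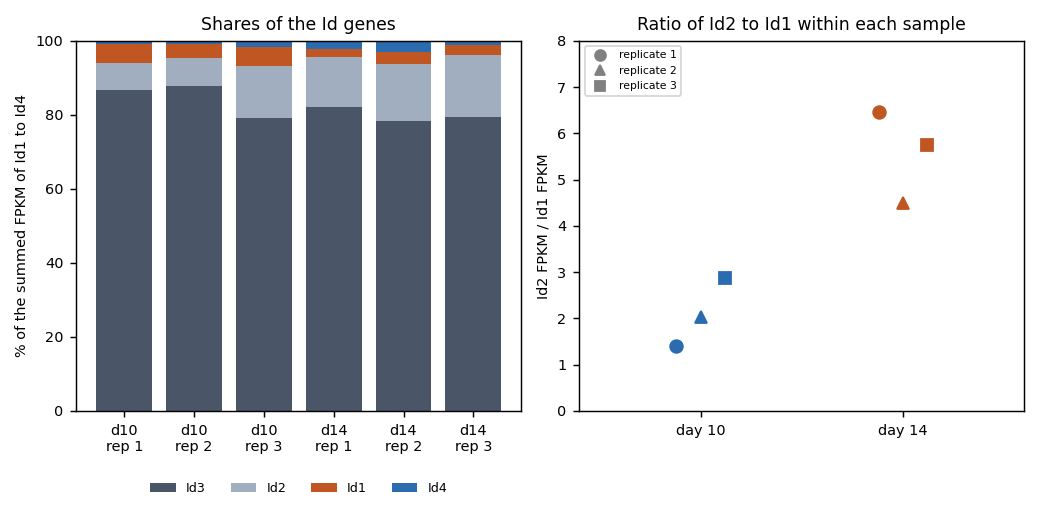
Left, the share of each Id gene in the summed FPKM of the 4 Id genes, 1 bar per sample; right, the ratio of Id2 to Id1 FPKM in each sample, with the marker shape giving the replicate number. Id3 takes 78.3% to 87.7% of every bar, and the ratio runs from 1.39 to 2.87 on day 10 and from 4.48 to 6.47 on day 14.

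The log2 fold changes of the feedback inhibitors ran from −1.99 in *Bambi* to −0.09 in *Smad7* and were not tested against each other. *Bambi*, the decoy receptor gene, on chromosome 18 from 3507923 to 3516404 on the plus strand, was at 62.9, 44.3 and 27.6 FPKM in the day 10 samples and at 9.32, 26.5 and 4.83 FPKM in those of day 14. The days were separate, but only by the step from 27.6 to 26.5 FPKM. Means of 44.9 ± 17.6 and 13.5 ± 11.4 FPKM (SD, n = 3) gave a log2 fold change of −1.99 (95% interval −3.27 to −0.71, adjusted p = 0.332 from limma), the largest of the set. The two-sided exact permutation test again gave p = 0.1, the smallest possible. Without day 14 replicate 2 the log2 fold change was −2.65 (adjusted p = 0.0419 from limma), and the unadjusted limma p was under 0.05 in 14 of 14 other settings.

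*Smad6*, which blocks BMP receptor signalling in particular, lies on chromosome 9 from 63953076 to 64022059 on the minus strand. It was at 11.4, 12.5 and 6.27 FPKM in the day 10 samples and at 4.59, 11.4 and 2.66 FPKM in those of day 14. Replicate 2 of day 14 matched the first day 10 sample, while replicates 1 and 3 were below all of them. The log2 fold change was −0.88 with all samples (95% interval −2.01 to 0.26, adjusted p = 0.612 from limma) and −1.44 without day 14 replicate 2 (adjusted p = 0.150 from limma).

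*Smad7*, the inhibitory Smad of both BMP and TGF-β receptors, on chromosome 18 from 75367529 to 75395935 on the plus strand, was at 8.14, 8.41 and 12.2 FPKM in the day 10 samples and at 9.14, 11.6 and 6.48 FPKM in those of day 14. The days overlapped fully. Its log2 fold change was −0.09 (95% interval −0.69 to 0.51, adjusted p = 0.952 from limma), and differences of either sign within this interval could not be told from none. *Smad7* was 0.712, 0.673 and 1.95 times *Smad6* on day 10 and 1.99, 1.02 and 2.44 times on day 14, and these ratios overlapped.

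Of the secreted antagonists, *Grem1* and *Chrd* had higher means on day 14. *Grem1*, on chromosome 2 from 113746164 to 113758646 on the minus strand, was at 2.14, 2.54 and 5.83 FPKM in the day 10 samples and at 4.43, 6.47 and 6.03 FPKM in those of day 14. Replicate 3 of day 10 lay among the day 14 samples. The log2 fold change was 0.79 (95% interval −0.07 to 1.66, adjusted p = 0.538 from limma). Stretches of *Grem1* of 77 to 109 bases resemble other genes at 95% identity or more, so a part of its reads could be placed elsewhere.

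*Chrd*, on chromosome 16 from 20733127 to 20742384 on the plus strand, was at 2.99, 3.61 and 4.23 FPKM in the day 10 samples and at 5.92, 4.17 and 6.23 FPKM in those of day 14. A single crossing, 4.23 against 4.17 FPKM, kept the days from being separate, the latter being day 14 replicate 2. The log2 fold change was 0.57 (95% interval −0.00 to 1.15, adjusted p = 0.502 from limma), and 0.75 without that sample (adjusted p = 0.259 from limma). *Chrd* was the only gene of the set in which day 14 replicate 2 was the lowest of its day, against 40.5% of all genes tested. It shares 240 identical bases with the neighbouring gene *Thpo*, so reads there cannot be told apart.

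*Nog*, on chromosome 11 from 89300638 to 89302332 on the minus strand, was near the limit of detection. It was listed at 0.476, 0.530 and 1.12 FPKM in the day 10 samples and at 0, 1.77 and 0.165 FPKM in those of day 14, or 0 to 15.5 estimated reads per sample. The highest and the lowest value both came from day 14, and no difference was detectable at this depth. Its fitted log2 fold change of −1.05 (adjusted p = 0.801 from limma) was −2.23 without day 14 replicate 2 (adjusted p = 0.258 from limma), when both remaining day 14 values were below day 10, and −0.12 without day 14 replicate 1. *Gapdh*, a gene that every cell uses, was also listed close to 0, with a lowest value of 0.125 FPKM, so a listed 0 is not read as absence. It was alone in this among the genes of its kind looked up, whose lowest values ran from 4.74 FPKM in *Tbp* to 689 FPKM in *Actb*. The other genes of the set rested on 41.2 to 5468 estimated reads per sample. *Nog*, *Grem1* and *Chrd* together came to 5.61, 6.68 and 11.2 FPKM on day 10 and to 10.3, 12.4 and 12.4 FPKM on day 14, with day 10 replicate 3 among the day 14 samples.

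**Figure D3:**
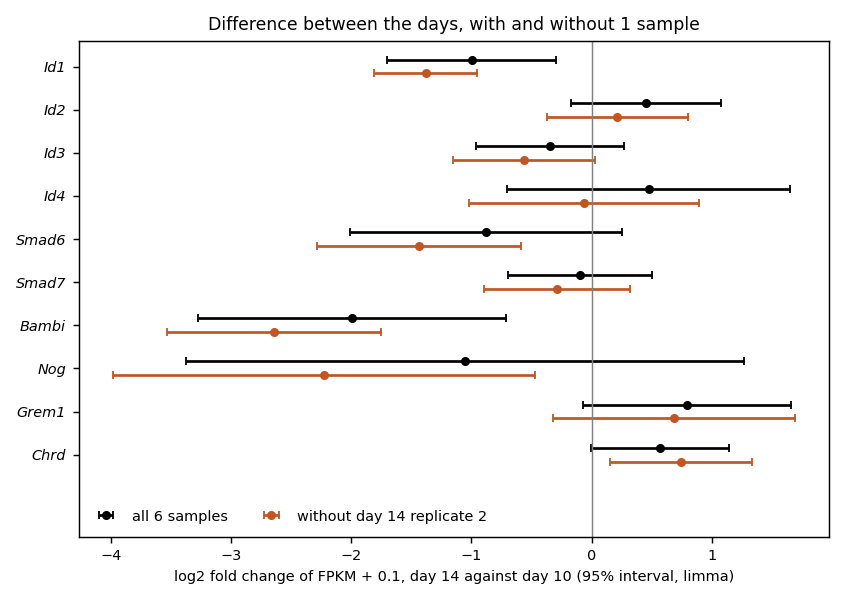
Log2 fold change of FPKM + 0.1 between day 14 and day 10 for each gene, with 95% intervals from limma, for all 6 samples (black) and without day 14 replicate 2 (orange). The black intervals of Id1 and Bambi lie below 0, from −1.70 to −0.29 and from −3.27 to −0.71, and Id4 crosses to −0.06 without the sample.

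Day 14 replicate 2 was the highest of the 3 day 14 samples in 9 of the 10 genes (90%), against 28.1% of all genes tested. Replicate 3 was the lowest in 7 of the 10 (70%), against 27.6% of all genes tested. *Id3* and *Smad6* followed the same order over the 6 samples as the mean of the OB markers, from day 10 replicate 2 down to day 14 replicate 3. Of all genes tested, 69 (0.353%) had this order. The mean of the chondrocyte markers, like *Id1*, *Id3*, *Smad6* and *Bambi*, was lowest in replicates 1 and 3 of day 14. The summed FPKM of the chondrocyte markers was 787 to 1626 on day 10 and 174 to 2488 on day 14. A log2 fold change below 0 was seen in 10 of 12 markers (10441 of the 19526 genes tested). Between the days 0 of 12 were separated (background 6.67% downwards and 7.59% upwards). The part of the OB and cartilage markers in the values of *Id1*, *Id3*, *Smad6* and *Bambi* was not tested.

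**Figure D4:**
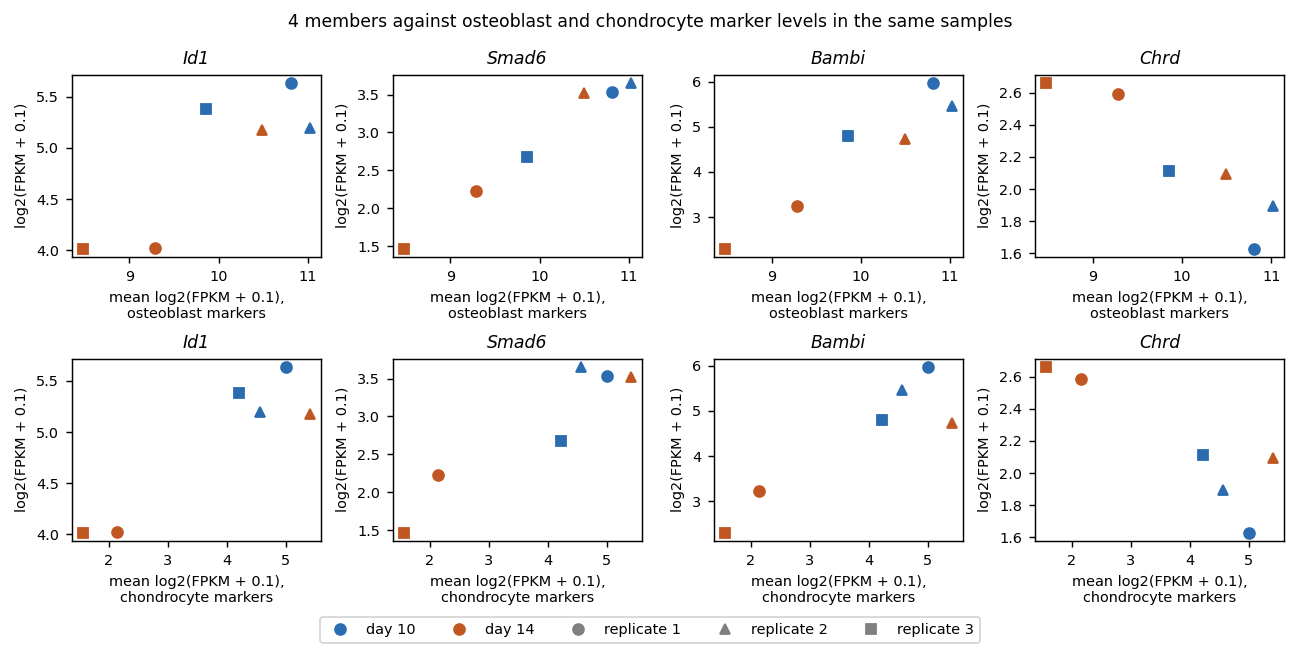
Log2(FPKM + 0.1) of Id1, Smad6, Bambi and Chrd against the mean log2(FPKM + 0.1) of the OB markers (top row) and of the chondrocyte markers (bottom row), 1 point per sample, day 10 in blue and day 14 in orange, with the shape giving the replicate. Replicates 1 and 3 of day 14, at chondrocyte marker means of 2.15 and 1.57, are lowest for Id1, Smad6 and Bambi and highest for Chrd.

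Markers of other cells were also read by their summed level. The 12 myeloid and osteoclast markers summed to 480 to 646 FPKM on day 10 and to 674 to 1289 FPKM on day 14. This sum did not overlap between the days, and 1 of the 12 markers was separated, upwards (background 7.59%). That sum was led by *Ctsk*, an osteoclast protease gene, at 403 to 425 FPKM on day 10 and 574 to 614 FPKM on day 14, and by *Lyz2*, a macrophage gene, at 6.35 to 454 FPKM over the 6 samples. The mean log2(FPKM + 0.1) over the list did overlap between the days, at 2.09, 3.65 and 2.97 on day 10 and 4.16, 1.31 and 4.64 on day 14, with replicate 2 of day 14 the lowest of all. Of the 12, 3 had a log2 fold change below 0 (10441 of the 19526 genes tested). *Chrd* was highest in replicates 3 and 1 of day 14, as was this mean, and its part in the values of *Chrd* was not tested. Endothelial markers summed to 2.05 to 4.02 FPKM on day 10 and to 3.89 to 8.57 FPKM on day 14, with overlap. Adipocyte markers summed to 10.7 to 18.2 and 18.8 to 31.8 FPKM, a sum made up mostly of *Fabp4*, whose samples overlapped between the days. Of the 3 tested markers 0 were separated (background 6.67% downwards and 7.59% upwards), and *Cfd* was at 0 in all 6 samples. Erythroid (32.3 to 106 and 41.7 to 124 FPKM), smooth muscle and pericyte (331 to 706 and 488 to 588 FPKM), skeletal muscle (2.06 to 9.16 and 0.304 to 2.83 FPKM) and skin markers (2.08 to 3.42 and 1.10 to 2.57 FPKM) overlapped between the days.

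The rest of the BMP pathway, with limiters of TGF-β signalling also among it, was read from 5 lists of 68 genes in all. Of these, 66 could be tested, *Gdf6* and *Myod1* being below a mean of 0.1 FPKM. With all 6 samples 0 of 66 passed an adjusted p of 0.05 in limma, while 5 were lower (background 4.4%) and 14 higher (background 5.6%) on day 14 at an unadjusted p under 0.05. The median log2 fold change was 0.10 over the 66 genes.

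Other secreted modulators mostly had positive log2 fold changes. Of 17 tested, 14 had a log2 fold change above 0 (9085 of the 19526 genes tested), with a median of 0.62. An unadjusted limma p under 0.05 was seen in 8, all 8 higher (background 5.6%), and 9 were separated upwards (background 7.59%). Leaving out day 14 replicate 2 gave counts of 8 (background 7.01%) and 10 (background 15.3%). *Fst*, whose product follistatin binds activins and some BMPs, was at 31.4, 42.0 and 50.3 FPKM in the day 10 samples and at 91.0, 90.0 and 92.5 FPKM in those of day 14. All 3 day 14 samples were close together and above day 10, and the log2 fold change was 1.17 (adjusted p = 0.193 from limma). *Chrdl1*, a chordin-like BMP antagonist, was at 6.13, 9.39 and 11.2 FPKM in the day 10 samples and at 14.1, 20.4 and 24.1 FPKM in those of day 14 (log2 fold change 1.13, adjusted p = 0.305 from limma). *Nbl1*, a secreted BMP antagonist, had a log2 fold change of 0.93. *Kcp*, a chordin-like modulator of BMP signalling, was 0.88 higher, *Fstl3* 0.86, *Fstl1* 0.77 and *Twsg1*, which binds BMPs together with chordin, 0.51, on the same log2 scale. For these 5 genes, adjusted p from limma ran from 0.305 to 0.494. *Bmp1*, the protease gene whose product cleaves chordin, was at 297 to 417 FPKM over the 6 samples (log2 fold change −0.19).

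Ligands, receptors and signal Smads showed no common direction, with a log2 fold change below 0 in 8 of 16 and above 0 in 8, and a median log2 fold change of −0.01. *Bmp4*, a BMP ligand gene, was at 5.37, 3.76 and 1.72 FPKM in the day 10 samples and at 0.490, 1.04 and 0.158 FPKM in those of day 14. The days were separate, and the log2 fold change was −2.60 (adjusted p = 0.305 from limma). *Smad9*, a signal Smad gene, was at 2.21, 1.09 and 1.27 FPKM and then at 0.212, 0.784 and 0.274 FPKM (log2 fold change −1.73, adjusted p = 0.373 from limma). Both *Bmp4* and *Smad9* were low in replicates 1 and 3 of day 14. Their values there were below the level of 3 reads on 1000 bases, 0.658 and 0.425 FPKM in these samples. With 1 FPKM added in place of 0.1, the log2 fold change was −1.52 for *Bmp4* and −0.82 for *Smad9*. *Bmpr1a*, a type I BMP receptor gene, was higher in every day 14 sample (log2 fold change 0.46, limma adjusted p = 0.407). The most abundant of this list were close to level between the days, with log2 fold changes of 0.13 for *Smad4*, 0.07 for *Smad1* and 0.02 for the receptor gene *Acvr1*, and all 3 had the opposite sign under another scaling.

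Intracellular limiters of BMP and TGF-β signalling are a list not particular to BMPs. A log2 fold change above 0 was seen in 10 of 12 genes (9085 of the 19526 genes tested). Of the 12, 5 had an unadjusted limma p under 0.05, all of them higher (background 5.6%, median log2 fold change 0.54). These were *Ski* (0.82) and *Skil* (0.55), corepressors that bind Smads, *Pmepa1* (0.72), which keeps Smads from the receptor, *Tgif1* (0.63), a corepressor, and *Smurf1* (0.62), a ubiquitin ligase for Smad1 and Smad5, with adjusted p from 0.337 to 0.403 in limma. Such a p was seen in 4 of the 12 without day 14 replicate 2 (background 7.01%). *Fkbp1a*, whose product holds type I receptors inactive, was at 138 to 194 FPKM over the samples (log2 fold change 0.20).

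Of 12 other BMP target genes, 10 had a log2 fold change below 0 (10441 of the 19526 genes tested). The median log2 fold change was −0.40. *Dlx3* (−2.51), *Sp7* (−2.34) and *Dlx5* (−1.91), which encode transcription factors of OB differentiation, had an unadjusted limma p under 0.05 (background 4.4%, adjusted p = 0.298, 0.309 and 0.460). *Sp7* and *Runx2* are also among the OB markers above. When day 14 replicate 2 was left out, 6 of the 12 had such a p (background 5.99%), 9 were separated downwards (background 13.2%) and the median was −1.09. *Dlx5* (adjusted p = 0.0102 from limma) and *Sp7* (adjusted p = 0.0329 from limma) then passed the adjusted threshold (background 0.386%). Day 14 replicate 2 was singled out from these same data, in part by OB markers that include *Sp7*. It held the highest day 14 value of both genes, so leaving it out widens their difference. In that sample *Dlx5* was at 9.84 FPKM, beside 0.979 and 1.01 FPKM in the other day 14 samples and 7.56 to 9.88 FPKM on day 10. The most abundant targets, the early-response gene *Junb* at 331 to 495 FPKM, *Hes1*, a repressor gene also driven by Notch, at 32.0 to 84.7 FPKM and *Tnfrsf11b*, which encodes the osteoclast inhibitor osteoprotegerin, at 8.78 to 81.4 FPKM, overlapped between the days.

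The helix-loop-helix partners and rivals of the Id proteins showed no difference past either threshold in 9 tested genes, with a median log2 fold change of −0.17. *Bhlhe40*, a repressor gene, was at 112 to 177 FPKM, and *Tcf4* and *Tcf12*, which encode E proteins that Id proteins bind, were at 13.1 to 17.2 and 12.9 to 16.2 FPKM. *Id3* exceeded the E protein genes in FPKM in every sample.

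**Figure D5:**
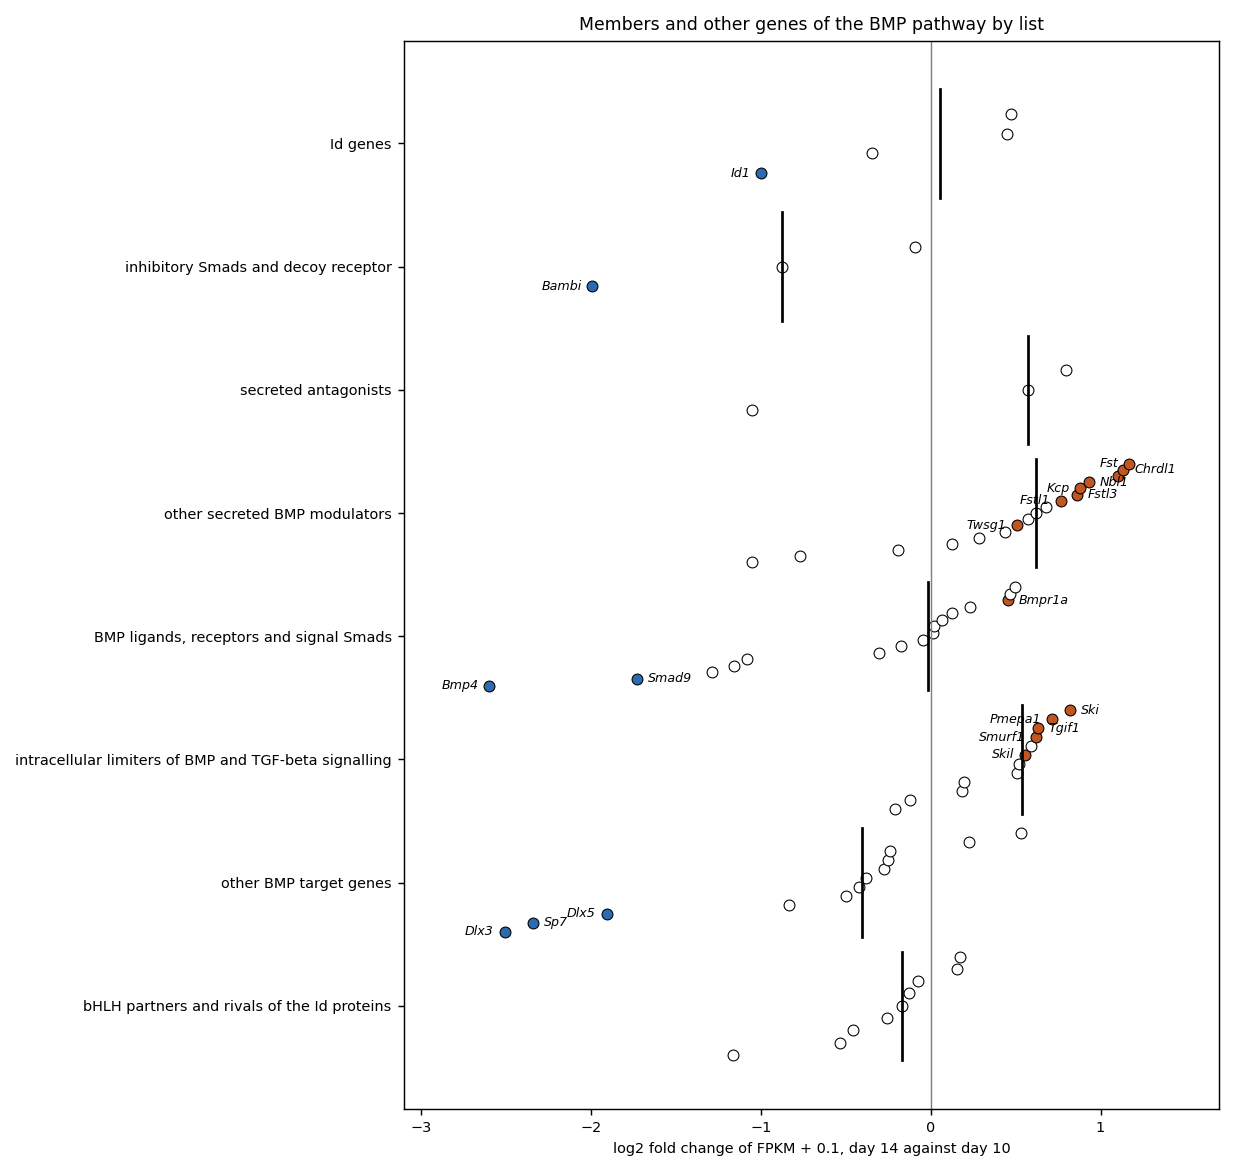
Log2 fold change of FPKM + 0.1 between day 14 and day 10 for the genes described here (top 3 rows) and 5 lists of the BMP pathway, 1 circle per gene and a vertical bar at the median of each list. Filled circles, most of them named, have an unadjusted limma p under 0.05, blue lower and orange higher on day 14, and the medians run from −0.88 for the inhibitory Smads and decoy receptor to 0.62 for the other secreted modulators.

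The genes whose profile over the 6 samples was most like that of each member were looked up among 6751 genes with a mean of at least 5 FPKM, by Pearson's r of log2(FPKM + 0.1). The 6 points share their library and day with every gene searched, and the values are a description with no p. The nearest were *Idh2* for *Id1* (r = 0.994), *Nradd* for *Id2* (0.983), *Ptpn13* for *Id3* (0.994), *Cdkn2aip* for *Id4* (0.988) and *Lifr* for *Smad6* (0.995). For *Smad7* it was *Brd7* (0.993), for *Bambi* *Cnst* (0.997), for *Grem1* *Atf2* (0.991) and for *Chrd* *Egfr* (0.998). The mean profile of the 4 Id genes was most like *Tdp1* (0.980), followed by *5430416N02Rik* and *Ppp2r5b* (0.979 each), *Fgfr2* (0.966) and *5730494N06Rik* (0.962).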

How the data were processed

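RNA-seq of sorted ECFP+ OBs was available for 3 samples of day 10 and 3 of day 14. Per the labels and methods, cDNA was made with a SMART-Seq ultra low input kit. Bases of the 75-base single-end reads came from Casava 1.8.2, and TopHat2 2.0.13 (with Bowtie2 2.2.3 and SAMtools 0.1.19) placed the reads on mm10. The deposited FPKM values, which the authors obtained from Cufflinks 2.2.1, are fragments scaled to exon length and to the mapped reads of the sample. The annotation and the handling of multiply mapped reads are not given in the sources used here, and the kit does not mark strand. In 1 file, 25 symbols turned into dates were restored by their place in the list.

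Genes with a mean above 0.1 FPKM were compared on log2(FPKM + 0.1) with limma 3.58.1 in R 4.3.3 (mean-variance trend, day as the only factor), with Benjamini-Hochberg adjustment over all genes tested, so that fold changes are those of FPKM + 0.1 and understate those of low genes. Single genes were also compared by two-sided exact permutation tests. Depth was estimated from the steps of values up to 0.3 FPKM in 1977 single-transcript genes (fragment of 220 bases, GENCODE vM21), where 74.7% to 79.7% of values fell within 0.1 of a whole read. Reads per gene used the longest transcript. The members and gene lists were chosen with earlier results of these data known. Named were all members, the pathway genes with an unadjusted p under 0.05, the 3 highest of each pathway list, the 2 highest of each marker list shown by sample, and the nearest profiles. Of these, 1 pathway gene is not reported here by name. Of the listed symbols, 20911 were in vM21. Alternatives were other pseudocounts, filters, scalings and variance models, a replicate block and leaving out each sample. The fit and the depth estimate were tested on simulated data.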

Additional observations from a re-analysis of the deposited data

How the results depend on the processing

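Across 14 other settings of processing or samples, the log2 fold changes of *Id1*, *Id2*, *Id3*, *Smad6*, *Bambi*, *Grem1* and *Chrd* kept their sign, as did that of *Nog* in the 13 in which it was tested. With 1 sample left out, *Id4* ran from −0.063 (without day 14 replicate 2) to 1.09, and *Smad7* from −0.29 to 0.13 (without day 14 replicate 3), with 0.091 without day 10 replicate 3. Leaving out each sample in turn gave 3 to 76 genes with an adjusted limma p under 0.05 of all genes tested (3 with all samples, 76 without day 14 replicate 2, 5 without day 10 replicate 2, and 6 without day 10 replicate 3 or day 14 replicate 1) and 937 to 2559 with an unadjusted one (1954 with all samples, 937 without day 10 replicate 1). For the 10 members these counts ran from 0 to 2 and from 1 to 5. The 2 were *Id1* and *Bambi* without day 14 replicate 2. The unadjusted count was 2 with all samples, 5 without day 10 replicate 3 (*Id1*, *Id2*, *Bambi*, *Grem1* and *Chrd*, with 1972 of all genes), 5 without day 14 replicate 2 (*Id1*, *Smad6*, *Bambi*, *Nog* and *Chrd*, with 2557 of all genes) and 1 without day 14 replicate 1 (*Bambi*, with 2559 of all genes). For the other pathway genes they ran from 0 to 2 and from 12 to 24 (0 and 19 with all samples), with 12 without day 10 replicate 1. Scaling to the sum without the 10 highest genes moved the median log2 fold change of all genes from −0.04 to −0.18, and *Smad4* (−0.029), *Smad1* (−0.090), *Acvr1* (−0.14) and *Tcf4* (−0.0014) then had the opposite sign. Leaving out 1 sample, the log2 fold change ran from −0.063 to 0.17 for *Smad1*, −0.12 to 0.15 for *Acvr1*, −0.68 to 0.022 for *Hes1*, −1.38 to 0.22 for *Tnfrsf11b* and −0.21 to 0.084 for *Bhlhe40*. *Smad1* was below 0 without day 14 replicate 3, *Acvr1* without day 10 replicate 1 or day 14 replicate 2, and *Hes1*, *Tnfrsf11b* and *Bhlhe40* were above 0 without day 14 replicate 3, *Bhlhe40* (0.051) also without day 10 replicate 1. The causes were not tested. In the fit with a replicate block, 2 of all genes had an adjusted limma p under 0.05 and 2130 an unadjusted one. Such an unadjusted p was seen in 4 of the 10 members (*Bambi*, *Id1*, *Smad6* and *Grem1*). Deviations of same-numbered samples correlated at r = 0.058, −0.00584 and 0.0888 across 19526 genes, so the numbers were not taken to pair the samples. An exact Mann-Whitney test gave the same smallest p of 0.1 for *Id1* and *Bambi*. *Nog*, at 0 to 15.5 estimated reads, is limited by depth.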
